A study of Mus musculus with 6 samples.

Results

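The 9 genes described here form the core of the Hedgehog pathway in mouse bladder mucosa: the ligand Shh, the receptor Ptch1 with the co-receptors Boc and Gas1, the transducer Smo, the transcription factors Gli1, Gli2 and Gli3, and the ligand-binding inhibitor Hhip. They were chosen by name as pathway members, with earlier results of these data known, and their rows were matched by Ensembl identifier. All 9 were found among the 14338 genes used, which are those listed in each of 6 tables of single-cell RNA counts.

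The libraries came from the bladder mucosa of wild type C57BL/6 mice aged 8 weeks, 2 libraries per condition. Healthy mice were untreated, and acute injury was taken 48 hours after cyclophosphamide (CPP). Chronic injury was taken on day 11, after 4 rounds of CPP. Per the methods, this was also 48 hours after the last injection, and each chronic dose was lower than the acute dose. CPP is a nitrogen mustard whose metabolite acrolein reaches the urine and strips the urothelium. Each condition had more mice than libraries and included both sexes, and the labels do not say which animals entered which library, so p-values between conditions measure the spread between libraries.

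In Hedgehog signalling, a cell that secretes Shh acts on neighbours that carry Ptch1, which holds Smo inactive until the ligand binds. Smo then acts through the primary cilium to let the Gli factors activate transcription, and Ptch1, Gli1 and Hhip are themselves standard target genes, so their RNA is read as a sign of the response. In the bladder, Shh is known as a urothelial signal to the stroma beneath, where responding cells return Wnt and Bmp signals to the epithelium.

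Cells were counted with 10x Chromium Single Cell 3' chemistry, in which a unique molecular identifier (UMI) marks each captured RNA molecule. The tables hold 54604109 to 111985678 UMIs per library, with a median of 5530 to 9138 UMIs per cell. After filtering, 49575 cells remained, of which 37419 were urothelial by their markers Cdh1, Epcam, Gata3, Krt8, Krt18, Upk1b and Krt5. Urothelial cells were split into basal, intermediate and superficial layers, each further divided by cycling score, and mesenchymal cells into fibroblasts and myofibroblasts. These classes were rebuilt from marker genes, so each name means cells like that type, and 2064 urothelial cells lay within 0.1 of the limit between basal and luminal scores. Classes differed widely in size, and chronic injury held few myofibroblasts (72 and 102 cells in replicates 1 and 2) and few fibroblasts in replicate 2 (76 cells). Between 36 and 229 cell barcodes were shared by each pair of libraries, which is 0.673% to 2.28% of the smaller library. Levels are CPM, the UMIs of a gene per 1000000 UMIs of the 14338 genes used, summed over all cells of a class in a library. Each library thus gives 1 value per class. The UMIs per library and per cell above count every listed gene.

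The Ptch1 and Hhip promoters are shown because these target genes carried the largest differences between stromal classes among the members. The letters are the 250 bases before the annotated RefSeq start (build GRCm38.p6), 5' to 3' on the gene's strand, and capitals mark the GC box GGGCGG on either strand. The Ptch1 window lies at chr13:63565736-63565985 on the minus strand and holds 78.4% G or C. It falls inside the annotated gene and overlaps no annotated exon, because the RefSeq start used lies inside the gene as GENCODE draws it, whereas the Hhip window lies just upstream of its gene. The Hhip window lies at chr8:80058009-80058258 on the minus strand and holds 76% G or C.
Ptch1: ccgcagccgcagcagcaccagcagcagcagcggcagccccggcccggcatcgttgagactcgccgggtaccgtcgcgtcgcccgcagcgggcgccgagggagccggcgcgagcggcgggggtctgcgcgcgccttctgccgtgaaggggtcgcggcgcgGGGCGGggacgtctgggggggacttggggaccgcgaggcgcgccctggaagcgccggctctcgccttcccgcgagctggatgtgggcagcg
Hhip: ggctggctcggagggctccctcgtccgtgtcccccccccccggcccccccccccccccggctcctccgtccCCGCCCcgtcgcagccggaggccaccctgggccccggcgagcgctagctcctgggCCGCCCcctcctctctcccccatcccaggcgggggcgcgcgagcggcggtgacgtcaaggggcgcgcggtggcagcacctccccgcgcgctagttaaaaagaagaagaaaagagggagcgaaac
The Ptch1 window holds 1 GC box and the Hhip window 2. Of 9 members, 6 matched a RefSeq promoter (Ptch1, Smo, Gli2, Gli3, Hhip and Gas1), and 5 of those 6 held a GC box, against 32.7% of all 32851 promoter windows. The GLI letters GACCACCCA, searched on both strands, were in 0 of the 6 member windows and in 0.225% of all windows. No promoter entry was matched for Shh, Gli1 or Boc.

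By CPM, the ligand was a gene of the lower urothelial layers. Shh (ENSMUSG00000002633, chr5:28456815-28467256, minus strand, GRCm38) stood at 229, 249, 209, 220, 200 and 329 CPM in the basal cells of healthy replicates 1 and 2, acute replicates 1 and 2 and chronic replicates 1 and 2, a mean of 239 ± 47.2 (SD, n = 6). In intermediate cells, in the same order, it stood at 191, 206, 199, 182, 182 and 269 CPM, a mean of 205 ± 32.9 (SD, n = 6). In superficial cells, the umbrella cells that face the urine, it stood at 99.4, 88.5, 72.3, 80.5, 51.5 and 80.5 CPM, a mean of 78.8 ± 16.2 (SD, n = 6). Chronic replicate 2 was the highest library in basal and intermediate cells, the ranges of those layers overlapped, and every superficial value lay below every value of the other layers.

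**Figure D1:**
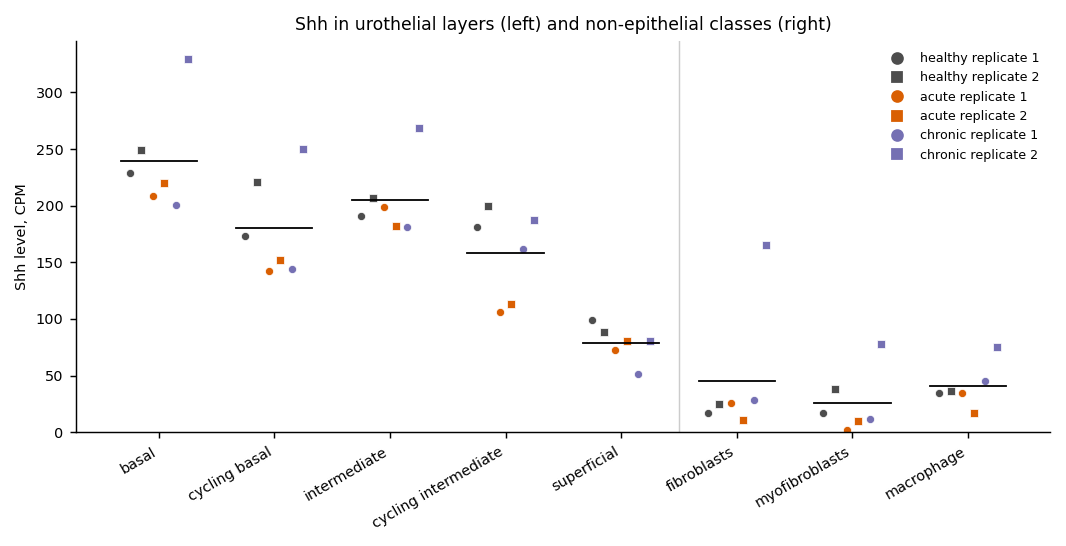
Shh level in CPM (y axis, linear from 0), with 1 point per library coloured by condition. Urothelial layers lie left of the grey line, and fibroblasts, myofibroblasts and macrophages lie right of it. Basal and intermediate cells lie between 182 and 329 CPM and superficial cells between 51.5 and 99.4 CPM.

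Within libraries, Shh was lower in intermediate than in basal cells in 6 of 6 libraries, by a log2 fold change of -0.15 ± 0.05 (SE), with an adjusted p of 0.013 in edgeR's quasi-likelihood test with the library as a block and Benjamini-Hochberg adjustment over all genes. The call, though not the size of the difference, depended on single libraries: the fold change was -0.13 without healthy replicate 2 (adjusted p = 0.0615), -0.13 without acute replicate 2 (adjusted p = 0.0603) and -0.13 without chronic replicate 2 (adjusted p = 0.0507). The step from intermediate to superficial cells was larger, with a log2 fold change of -1.31 ± 0.10 (SE) and an adjusted p of 4.15e-09 in the same test. Of the 6 members tested between intermediate and basal cells, 4 were called lower and 0 higher, where 21.4% of all genes tested were called lower. Between superficial and intermediate cells, 3 of 5 members tested were called lower, where 26.8% of all genes were.

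The share of cells with at least 1 Shh UMI gave the same order of layers only once depth was made equal. In cells thinned to 3000 UMIs, it was 47.0%, 52.4%, 44.9%, 45.6%, 43.8% and 63.0% in basal cells, in the order healthy, acute, chronic with replicate 1 first. The thinning left out 76 of 124 basal cells of chronic replicate 1, whose share was 39.5% over all of them, 255 of 921 of healthy replicate 2 and 145 of 448 of chronic replicate 2. Intermediate cells held 41.0% to 52.8% and superficial cells 15.1% to 25.5% on the same footing. Macrophages, which are not a known source of Shh, held 6.38% to 22.2%, which was taken as the background and which every urothelial layer exceeded within its own library except superficial cells of chronic replicate 2 (22.1% against 22.2%). Other classes of chronic replicate 2 also exceeded its superficial cells: fibroblasts (37.8%), endothelial cells (31.6%) and myofibroblasts (25.0%). So did endothelial cells of healthy replicate 2 (33.3% of 3 cells) and chronic replicate 1 (16.7% of 6 cells) within their libraries. All of these lay below the basal and intermediate shares of their libraries. Shares were not computed for NK and T or mural cells. By CPM, NK and T cells of both healthy libraries and mural cells of acute replicate 1 exceeded the superficial cells of their own library. In acute replicate 2, NK and T cells and mural cells stood below them. The intermediate share was lower than the basal share in 6 of 6 libraries, with a mean difference of -5.23 percentage points, and the superficial share was below the intermediate share in 6 of 6, with a mean difference of -22.8 points. Each gave p = 0.0312 in an exact two-sided permutation test, the smallest that 6 paired libraries can give, and 0.141 after Benjamini-Hochberg adjustment over 18 tests of shares. Without thinning, the intermediate share was 4.48 points above the basal share, and the superficial share differed by -14.1 points from the intermediate share. Superficial cells then held 28.5% to 61.2%, and in healthy replicate 1 they exceeded basal cells (61.2% against 55.7%). In the other libraries they stayed below basal cells. The median depth was 2636 to 4542 UMIs in basal cells, 3857 to 5553 in intermediate cells and 6791 to 10842 in superficial cells, and 2160 to 4027 in macrophages.

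Cycling basal cells held less Shh than other basal cells. Cycling basal cells had 173, 221, 143, 152, 144 and 250 CPM, each below the non-cycling basal value of its own library. The log2 fold change was -0.42 ± 0.07 (SE), with an adjusted p of 1.31e-04 in edgeR's quasi-likelihood test, where 4.9% of all genes were called lower. Cycling intermediate cells had 181, 199, 107, 113, 162 and 188 CPM, with a log2 fold change of -0.43 ± 0.11 (SE) from non-cycling intermediate cells and an adjusted p of 0.0222, where 7.06% of all genes were called lower. That second difference did not hold once a cycling sub-cluster with superficial markers was left out (log2 fold change -0.07 ± 0.04 (SE), adjusted p = 0.335). It was also not called with clustering without integration (-0.12, adjusted p = 0.197), without acute replicate 2 (-0.36, adjusted p = 0.0939) or without chronic replicate 2 (-0.41, adjusted p = 0.0822). Both cycling comparisons were chosen after the values were seen.

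Shh in the stroma was low and uneven between libraries. Fibroblasts had 16.8, 25.2, 25.9, 10.7, 28.1 and 166 CPM, the last from 47 UMIs in the 76 cells of chronic replicate 2. Myofibroblasts had 16.5, 37.7, 1.61, 10.3, 11.5 and 77.6 CPM, where the value of acute replicate 1 rests on 1 UMI and that of chronic replicate 1 on 2 UMIs. Macrophages had 34.9, 36.0, 34.2, 17.0, 45.2 and 75.1 CPM, so chronic replicate 2 was the highest library in each of these classes. The summed level of 7 urothelial markers was also highest there in fibroblasts, at 4489 CPM against 617 to 2385 CPM in the other libraries and 7666 to 10326 CPM in urothelial cells. In myofibroblasts and macrophages it was instead highest in chronic replicate 1 (3231 and 3584 CPM, against 2245 and 2787 CPM in chronic replicate 2). Per 1000 CPM of urothelial markers, Shh stood at 36.9 CPM in fibroblasts of chronic replicate 2, at 34.6 in its myofibroblasts, at 26.9 in its macrophages and at 24.9 in its urothelial cells. In the other libraries that ratio was 7.88 to 27.9 in fibroblasts, 2.65 to 23.7 in myofibroblasts, 9.64 to 22.0 in macrophages and 14.3 to 26.5 in urothelial cells. The part of free urothelial RNA in stromal Shh was not tested beyond these values.

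The receptor, transducer, Gli and target genes stood higher in the stroma than in the epithelium. Of the 9 members, 8 were called higher in mesenchymal than in urothelial cells, where 33.3% of all genes were, and Shh was called lower, where 36.0% were. The log2 fold changes, all by edgeR's quasi-likelihood test, ran from 1.71 ± 0.10 (SE) for Smo (adjusted p = 8.22e-08) to 6.63 ± 0.36 (SE) for Hhip (adjusted p = 6.92e-08). Gli1 and Gli2 each differed by 5.31, Ptch1 by 3.76, Gli3 by 3.60, Boc by 3.28 and Gas1 by 2.88 on the log2 scale, and Shh by -2.84 ± 0.31 (SE, adjusted p = 1.24e-05).

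**Figure D2:**
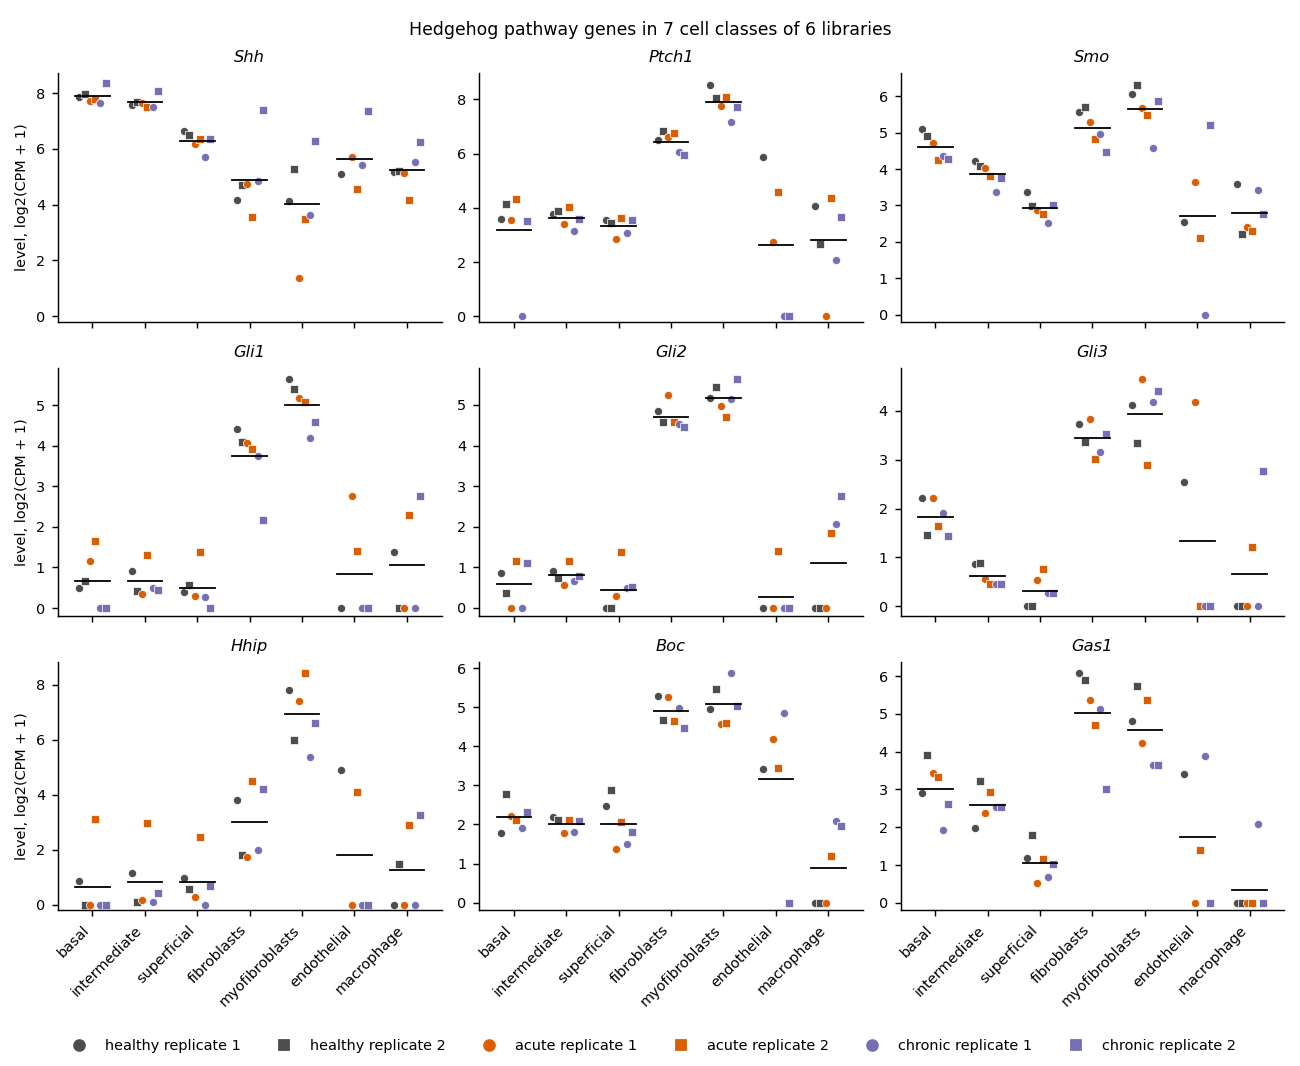
Level of each of the 9 members as log2(CPM + 1) (y axis) in 7 cell classes (x axis), with 1 point per library coloured by condition. Shh stands highest in basal and intermediate cells, and Ptch1, Gli1, Gli2 and Hhip stand highest in fibroblasts and myofibroblasts.

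Among stromal cells, the target genes stood highest in myofibroblasts. Ptch1 (ENSMUSG00000021466, chr13:63508328-63573598, minus strand) is both the receptor and a target. It had 369, 265, 214, 272, 143 and 207 CPM in myofibroblasts and 89.0, 112, 96.5, 107, 64.9 and 59.9 CPM in fibroblasts. Every myofibroblast value lay above every fibroblast value, and both chronic libraries were the lowest of their class. The log2 fold change between the classes was 1.50 ± 0.14 (SE), with an adjusted p of 1.28e-06 in edgeR's quasi-likelihood test. Epithelial layers held little Ptch1, between 0 and 19.2 CPM in basal cells, 7.75 and 15.5 CPM in intermediate cells and 6.27 and 11.2 CPM in superficial cells, and macrophages held 0 to 19.6 CPM.

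Gli1 (chr10:127329882-127341974, minus strand), a Gli activator whose own transcription follows the pathway, had 49.0, 41.2, 35.4, 32.5, 17.2 and 23.0 CPM in myofibroblasts. Fibroblasts had 20.4, 16.2, 15.7, 14.2, 12.5 and 3.52 CPM, the last from 1 UMI. Gli1 was higher in myofibroblasts in 6 of 6 libraries, but the chronic myofibroblast value of 17.2 CPM (3 UMIs) fell within the range of the fibroblasts. The log2 fold change was 1.27 ± 0.16 (SE), with an adjusted p of 2.89e-05 in edgeR's quasi-likelihood test. Intermediate cells held 0.268 to 1.47 CPM.

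Hhip (chr8:79965851-80058006, minus strand), which binds and sequesters the ligand, separated the classes most. Myofibroblasts had 223, 62.9, 171, 338, 40.1 and 97.7 CPM and fibroblasts 13.2, 2.49, 2.35, 21.6, 3.04 and 17.6 CPM, with no overlap. The log2 fold change was 4.21 ± 0.23 (SE), with an adjusted p of 8.7e-09 in edgeR's quasi-likelihood test. Hhip spread widely between libraries of 1 condition, at 223 and 62.9 CPM in healthy myofibroblasts. In urothelial cells it was 1.31, 0.092, 0.138, 6.39, 0.0542 and 0.372 CPM, highest in acute replicate 2, where 246 UMIs were counted and where myofibroblasts also held the most cells (2763) and the highest Hhip.

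The proportions of the target genes were also read from their UMIs. There were 6.0 to 9.0 Ptch1 UMIs per Gli1 UMI in myofibroblasts and 10.3 to 48.5 in urothelial cells, with no overlap. Fibroblasts, with 4.35 to 17.0, overlapped the urothelial range, and so did the Hhip UMIs per Ptch1 UMI of myofibroblasts (0.237 to 1.24) and urothelial cells (0.00661 to 0.41). Urothelial Gli1 rested on 6 to 58 UMIs per library, against 272 to 600 Ptch1 UMIs.

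Smo (chr6:29735503-29761365, plus strand), the transducer, was more evenly spread. It had 65.5, 78.9, 49.9, 43.9, 22.9 and 57.5 CPM in myofibroblasts and 46.1, 51.6, 38.4, 27.3, 30.4 and 21.1 CPM in fibroblasts. The log2 fold change was 0.60 ± 0.14 (SE), with an adjusted p of 0.00687 in edgeR's quasi-likelihood test, and the ranges overlapped, with chronic replicate 1 the only library in which myofibroblasts were lower. In the epithelium Smo fell with the layers: basal cells had 33.1, 29.3, 25.3, 17.9, 19.5 and 18.4 CPM, intermediate cells 17.5, 16.0, 15.3, 13.2, 9.26 and 12.5 CPM, and superficial cells 4.73 to 9.36 CPM. The basal values all lay above the intermediate values, and the log2 fold changes were -0.67 ± 0.10 (SE, adjusted p = 5.61e-06) from basal to intermediate and -0.97 ± 0.12 (SE, adjusted p = 1.4e-06) from intermediate to superficial cells in the same test.

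Gli2 (chr1:118834132-119053619, minus strand), the main activator among the Gli factors, and Gli3 (chr13:15463235-15730026, plus strand), which acts largely as a repressor, were not called between the stromal classes. Gli2 had 35.3, 42.3, 30.6, 25.1, 34.4 and 48.9 CPM in myofibroblasts and 28.0, 23.0, 36.9, 22.8, 22.0 and 21.1 CPM in fibroblasts, with overlapping ranges (log2 fold change 0.41 ± 0.16 (SE), adjusted p = 0.104 in edgeR's quasi-likelihood test). Gli3 had 6.37 to 24.1 CPM in myofibroblasts and 7.11 to 13.3 CPM in fibroblasts. Gli3 was low in the epithelium and lowest above the basal layer, at 1.72 to 3.68 CPM in basal and 0.365 to 0.853 CPM in intermediate cells (log2 fold change -2.05 ± 0.36 (SE), adjusted p = 4.17e-05 in the same test). Gli2 stayed between 0.413 and 1.30 CPM in urothelial cells.

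The co-receptors, which present the ligand to Ptch1, also lay in the stroma, and neither was called between its classes. Boc (chr16:44485049-44558897, minus strand) had 22.5 to 57.3 CPM in myofibroblasts and 21.1 to 38.2 CPM in fibroblasts, against 2.47 to 3.93 CPM in urothelial cells. Gas1 (chr13:60174405-60177365, minus strand) had 66.2, 58.4, 40.0, 25.2, 34.2 and 7.05 CPM in fibroblasts, the last from 2 UMIs, and 27.2, 52.6, 17.7, 40.0, 11.5 and 11.5 CPM in myofibroblasts. Its ranges overlapped, and the log2 fold change of -0.36 was not called (adjusted p = 0.381 in edgeR's quasi-likelihood test), although without acute replicate 2 it was -0.80 (adjusted p = 0.0245). In the epithelium Gas1 fell from 2.78 to 14.1 CPM in basal cells to 2.97 to 8.28 CPM in intermediate cells (log2 fold change -0.64 ± 0.17 (SE), adjusted p = 0.00364 in the same test) and 0.448 to 2.45 CPM in superficial cells (-2.21 ± 0.24 (SE), adjusted p = 5.95e-07). Chronic replicate 1 was the exception to the first step, with 4.82 CPM in intermediate and 2.78 CPM in basal cells.

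Together, 4 of 9 members (Ptch1, Gli1, Hhip and Smo) were called higher in myofibroblasts than in fibroblasts and 0 lower, where 10.6% of all genes tested were called higher. A cluster of 1806 cells, led by Tnc, Col12a1 and Hhip, had been removed because 812 of them were called doublets. Of its 994 cells not called doublets, 912 came from acute replicate 2, with a median of 1486 UMIs, 146 CPM of Hhip and 6043 CPM of summed urothelial markers, and 18 and 5 came from the chronic libraries. Counted as myofibroblasts, an alternative chosen after the values were seen, they left all 4 calls in place (1.36 for Ptch1, 1.16 for Gli1, 4.10 for Hhip and 0.52 for Smo, adjusted p of 0.026 or less by edgeR's quasi-likelihood test). The shares of cells with a UMI went the same way for Ptch1 and Gli1. In cells thinned to 3000 UMIs, 27.3% to 60.7% of myofibroblasts and 11.1% to 24.4% of fibroblasts had a Ptch1 UMI, against 0% to 4.26% of macrophages. For Gli1 the shares were 8.33% to 12.9% of myofibroblasts and 0% to 4.57% of fibroblasts, against 0% of the 30 to 103 macrophages per library. Only 11 of the 72 myofibroblasts of chronic replicate 1 were deep enough to be thinned. Among fibroblasts it was 82 of 1254 in chronic replicate 1, 159 of 1428 in healthy replicate 2 and 217 of 1661 in acute replicate 2, so these shares rest on the deepest cells. Both shares were higher in myofibroblasts in 6 of 6 libraries, by 23.0 points for Ptch1 and 7.85 points for Gli1 (exact permutation p = 0.0312 each, the smallest possible, and 0.141 after adjustment over 18 tests). Median depth was 2156 to 3893 UMIs in myofibroblasts, 1945 to 3342 in fibroblasts and 2160 to 4027 in macrophages.

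The stroma was also read by subtype. Fibroblasts were divided into those marked by Pi16 and Mfap5, by Has1, Scara5 and Bglap2, and by Inmt, Sct and Ass1, and myofibroblasts into contractile and low-contractile cells by their contractile genes. Ptch1 had 403, 335, 257, 268, 188 and 281 CPM in contractile myofibroblasts and 322, 203, 165, 285, 106 and 162 CPM in low-contractile ones. It was higher in contractile cells in 5 of 6 libraries, acute replicate 2 being the exception. In the fibroblast subtypes, over libraries with at least 20 cells, Ptch1 had 53.4 to 108 CPM in Pi16, 45.9 to 116 CPM in Has1 and 55.5 to 117 CPM in Inmt fibroblasts, with ranges that overlapped. Hhip had 250, 104, 182, 369, 50.1 and 144 CPM in contractile and 187, 25.9, 158, 233, 31.7 and 69.3 CPM in low-contractile myofibroblasts, higher in contractile cells in 6 of 6 libraries, and the spread between libraries was wider than the gap within them.

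Against the other subtypes, contractile myofibroblasts were higher in Ptch1 by a log2 fold change of 1.42 ± 0.12 (SE, adjusted p = 1.45e-11), in Gli1 by 1.00 ± 0.14 (SE, adjusted p = 8.01e-07), in Hhip by 3.64 ± 0.16 (SE, adjusted p = 3.71e-18) and in Smo by 0.48 ± 0.14 (SE, adjusted p = 0.00982), all by edgeR's quasi-likelihood test, where 13.5% of all genes were called higher. Low-contractile myofibroblasts were higher in Ptch1 (0.86), Gli1 (0.92) and Hhip (2.74), where 11.2% of all genes were, and their calls for Smo (0.45, adjusted p = 0.0265) and Gli2 (0.48, adjusted p = 0.0329) depended on single libraries and settings. Smo in low-contractile cells was 0.44 without healthy replicate 1 (adjusted p = 0.126), 0.42 without acute replicate 1 (adjusted p = 0.066), 0.41 without acute replicate 2 (adjusted p = 0.146) and 0.33 with doublets kept (adjusted p = 0.109). Gli2 in these cells was 0.33 without healthy replicate 1 (adjusted p = 0.359), 0.58 without acute replicate 2 (adjusted p = 0.0547), 0.48 without chronic replicate 1 (adjusted p = 0.0503) and 0.40 without chronic replicate 2 (adjusted p = 0.0702). It was 0.38 with doublets kept (adjusted p = 0.087), 0.48 by DESeq2 (adjusted p = 0.0645) and 0.45 without the filter on low counts (adjusted p = 0.0547). The Smo call in contractile cells was lost without healthy replicate 2 (0.41, adjusted p = 0.0693) or acute replicate 2 (0.41, adjusted p = 0.116). Over all 5 subtypes, 19 member calls were made, and 7 when cells were clustered without integration. Over all genes, the fewest called in any comparison of classes were 451 in the main fit and 103 in that setting. In contractile cells that setting ended the calls of Gli1 (0.71, adjusted p = 0.135) and Smo (0.33, adjusted p = 0.539), and in low-contractile cells those of Smo (0.55, adjusted p = 0.0683) and Gli2. Gli1 had 50.3, 48.6, 36.3, 31.3, 25.0 and 22.8 CPM in contractile and 47.2, 34.6, 34.3, 36.8, 10.6 and 23.1 CPM in low-contractile cells. The low value of 10.6 CPM rests on 1 UMI in the 39 low-contractile cells of chronic replicate 1 and lies below the fibroblasts of that library (12.5 CPM), and the contractile values of chronic injury rest on 2 and 3 UMIs.

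Pi16 fibroblasts held the most of a co-receptor. Gas1 had 90.5, 90.1, 67.1, 33.3 and 54.9 CPM in the 5 libraries that held at least 20 of these cells, and chronic replicate 2 held 7 of them and gave no value. The log2 fold change against the other subtypes was 1.23 ± 0.19 (SE), with an adjusted p of 1.06e-05 in edgeR's quasi-likelihood test, where 9.13% of all genes were called higher. The same cells were lower in Ptch1 (-0.86) and Hhip (-2.11), where 9.79% of all genes were called lower, and their lower Gli1 (-0.66, adjusted p = 0.0142) was not called without healthy replicate 1 (-0.68, adjusted p = 0.0961), without healthy replicate 2 (-0.57, adjusted p = 0.123) or by DESeq2 (-0.65, adjusted p = 0.0502). Has1 fibroblasts were lower in Ptch1 (-0.78), Gli1 (-0.78) and Hhip (-3.25), where 6.18% of all genes were. Inmt fibroblasts were lower in Ptch1 (-0.65), Hhip (-1.03) and Gas1 (-0.97), where 2.49% were, and the Hhip call did not hold without acute replicate 2 (-1.09, adjusted p = 0.165) nor the Gas1 call without healthy replicate 2 (-0.97, adjusted p = 0.0544). Clustering without integration ended 8 of these calls: in Pi16 fibroblasts Gas1 (0.98, adjusted p = 0.263), Hhip (-1.59, adjusted p = 0.187) and Gli1 (-0.36, adjusted p = 0.839), in Has1 fibroblasts Ptch1 (-0.46, adjusted p = 0.663) and Gli1 (-0.75, adjusted p = 0.747), and in Inmt fibroblasts Ptch1 (-0.93, adjusted p = 0.151), Hhip (-1.51, adjusted p = 0.327) and Gas1 (-0.34, adjusted p = 0.958). The fold changes of Ptch1 and Hhip in Inmt fibroblasts were larger in that setting and that of Gli1 in Has1 fibroblasts was about the same, while the other 5 were smaller.

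**Figure D3:**
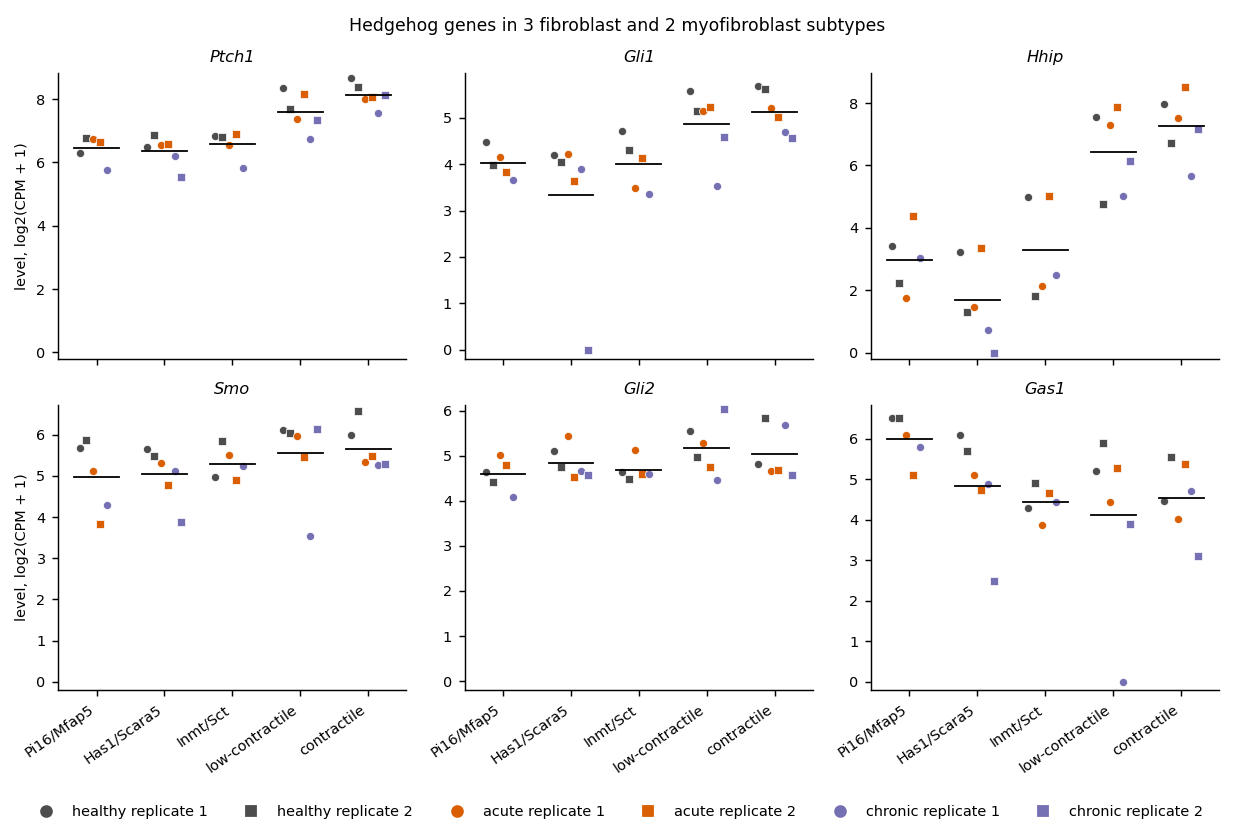
Level of Hedgehog genes as log2(CPM + 1) (y axis) in 3 fibroblast and 2 myofibroblast subtypes (x axis), with 1 point per library that held at least 20 cells of the subtype. Ptch1, Gli1 and Hhip stand higher in both myofibroblast subtypes, and Gas1 stands highest in Pi16 fibroblasts.

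Beyond the 9 members, a list of 50 pathway genes was read, of which 44 were in the tables. The list was chosen with earlier results of these data known, so its counts describe these genes only. In myofibroblasts against fibroblasts, 11 of the 36 tested were called higher, 5 lower and 20 neither, where 10.6% of all genes were called higher and 8.34% lower, with a median log2 fold change of 0.12 against -0.01 over all genes. Among the ligand-release genes, Scube3 was higher by 4.51 ± 0.31 (SE, adjusted p = 5.34e-08 in edgeR's quasi-likelihood test) and Scube1 lower by a log2 fold change of -2.87. Gpc3, a glypican that binds Hedgehog ligand, was lower (-3.56). Of 14 stromal genes known to respond to Hedgehog, 6 were called higher and 3 lower: Bmp5 (3.61), Foxl1 (2.17) and Wnt4 (1.28) were higher and Sfrp1, a Wnt antagonist, was lower (-3.42). Bmp4 (0.28, adjusted p = 0.347), Wnt5a (0.68, adjusted p = 0.054) and Wnt2 (0.01, adjusted p = 0.99) were not called. Of 16 cilium and transduction genes, 2 were called higher and 0 lower.

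**Figure D4:**
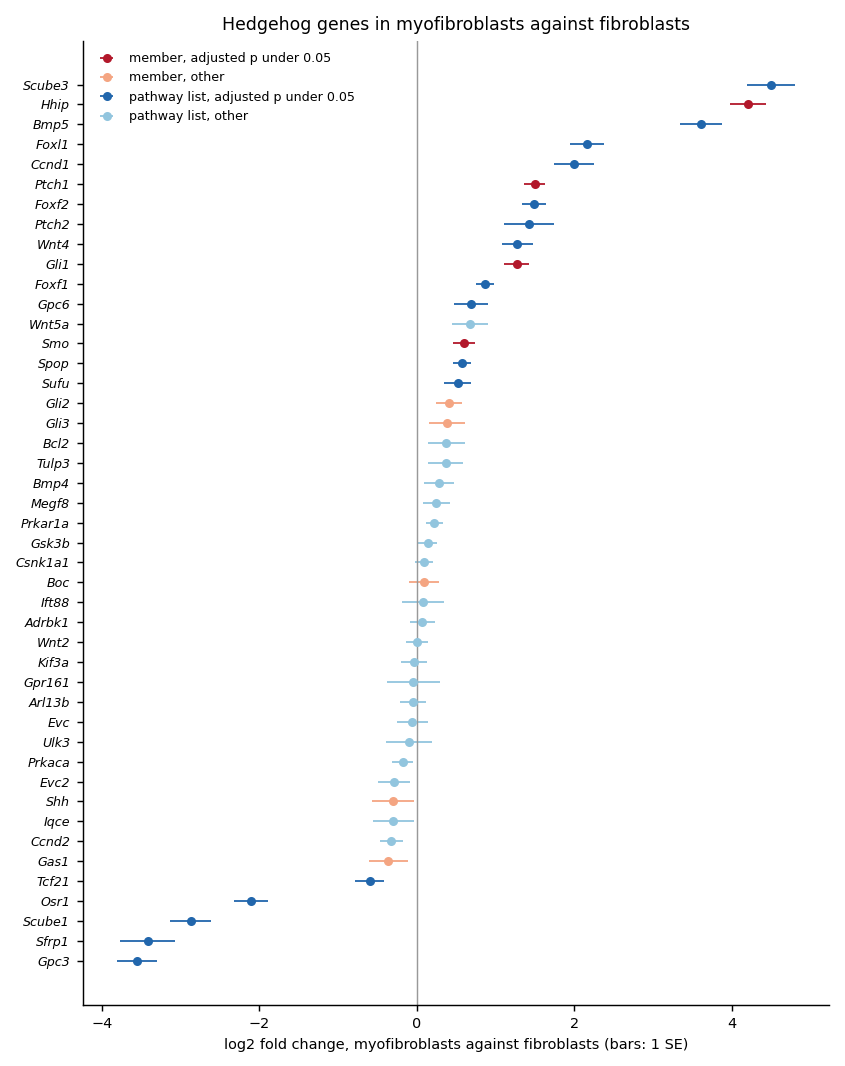
Log2 fold change between myofibroblasts and fibroblasts (x axis, bars of 1 SE) for each Hedgehog gene tested (y axis), coloured by whether edgeR's quasi-likelihood test called it. Hhip (4.21) and Scube3 (4.51) lie farthest to the right and Gpc3 (-3.56) farthest to the left.

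In the urothelium, the ligand-release gene Scube2 ran against Shh. It was higher in intermediate than basal cells by a log2 fold change of 3.11 ± 0.20 (SE, adjusted p = 1.64e-12) and again higher in superficial cells by 2.07 ± 0.09 (SE, adjusted p = 1.27e-11), both by edgeR's quasi-likelihood test. Over the list, 2 of 31 genes tested were called higher and 12 lower in intermediate against basal cells, where 20.2% of all genes were higher and 21.4% lower. The lower ones included the glypican Gpc6 (-1.67), the activin antagonist Fst (-1.61), the cilium gene Arl13b (-1.10), Bcl2 (-0.83), Ccnd1 (-0.71), Wnt4 (-0.44) and Wnt5a (-0.17). Between superficial and intermediate cells, 7 of 30 were called higher and 8 lower, close to the 26.8% of all genes called each way. Among them were Ccnd2 (1.06) and Wnt2 (0.28, adjusted p = 0.0465), both higher, and Bcl2 (-1.34), Sufu (-0.60) and Wnt5a (-0.32), all lower. In mesenchymal against urothelial cells, 30 of 43 were higher and 7 lower, where 33.3% and 36.0% of all genes were, with Tcf21 (6.54), Bmp4 (6.37), Osr1 (6.29), Bmp5 (6.22), Scube3 (6.07), Foxf1 (6.03) and Wnt2 (6.00) among the higher and Wnt5a (-2.18) among the lower.

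By likeness of pattern over 41 sums of library and class, computed on log2(CPM + 1) over 10862 genes, the genes nearest to Shh were Plxnb1 (Pearson r = 0.934), Trp63 (0.934), a basal transcription factor, and Aqp3 (0.931), a water channel. Nearest to Gli1 were Rtn2 (0.962), Sostdc1 (0.948) and Rhox5 (0.946), and nearest to Ptch1 were Chpf (0.921), Podn (0.917) and Podxl2 (0.915). Among the members, Gli1 and Gli2 gave 0.915, Gli1 and Ptch1 0.855, and Shh and Gli1 -0.654. The sums share libraries and depth, so these values describe the pattern.

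No member passed the test between conditions, which left out cycling urothelial cells. Over 15 comparisons (3 pairs of conditions in 5 classes), 105 member values were tested, 0 had an adjusted p below 0.05 by edgeR's quasi-likelihood test and 0 by DESeq2, and the lowest adjusted p was 0.342. Over all genes, 0 to 3 per comparison were called by edgeR and 0 to 62 by DESeq2. An unadjusted p below 0.05 by edgeR was found for 11 of the 105 member values (10.5%), pooled over the comparisons. Over all genes the share was 10.0% in acute against chronic myofibroblasts. It was 2.24% to 7.39% in each of the remaining comparisons. These member values share libraries and are not independent. The edgeR calls were 0.0364% of genes in acute and 0.0% in chronic against healthy myofibroblasts, 0.00895% and 0.0179% in fibroblasts, and 0.0% in the other comparisons. The acute and chronic comparisons with healthy bladder share the healthy libraries.

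**Figure D5:**
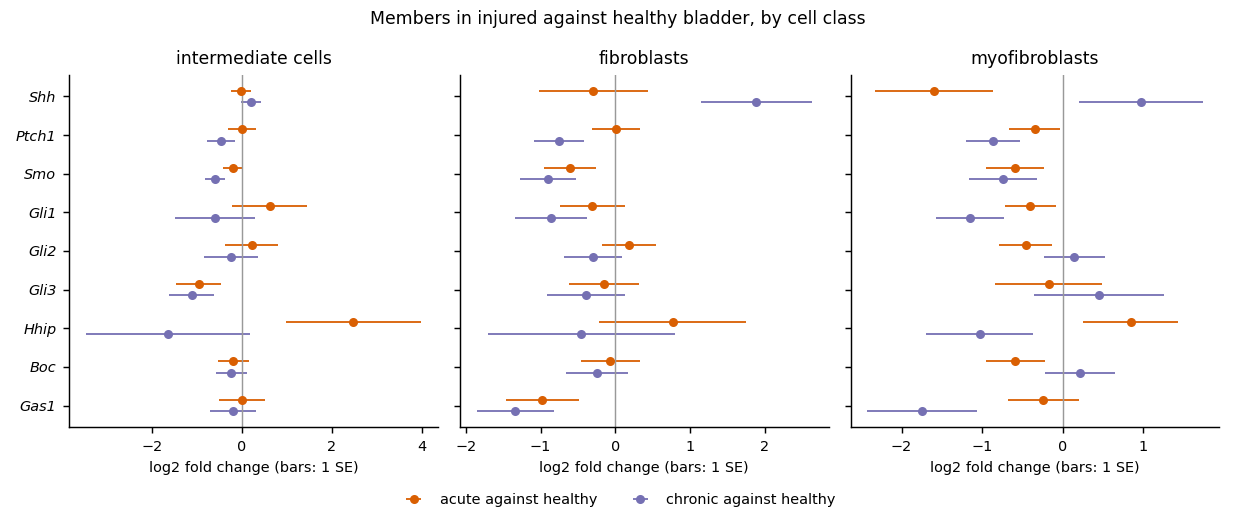
Log2 fold change of each member (y axis) in acute and chronic injury against healthy bladder (x axis, bars of 1 SE), by cell class. Most chronic estimates for Ptch1, Gli1, Smo and Gas1 in the stroma lie below 0, and none passed the adjusted threshold.

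Ptch1 and Gli1 had their lowest stromal means in chronic injury, short of a call. Ptch1 in fibroblasts was 100 ± 16.2 CPM in healthy, 102 ± 7.63 in acute and 62.4 ± 3.52 in chronic libraries (mean ± SD, n = 2 each), and in myofibroblasts 317 ± 73.2, 243 ± 40.9 and 175 ± 45.1 CPM. Both chronic libraries lay below both healthy libraries in each class, with log2 fold changes of -0.76 ± 0.34 (SE, adjusted p = 0.698) in fibroblasts and -0.86 ± 0.34 (SE, adjusted p = 0.654) in myofibroblasts by edgeR's quasi-likelihood test. Gli1 in myofibroblasts was 45.1 ± 5.54, 34.0 ± 2.04 and 20.1 ± 4.11 CPM, and the 3 conditions did not overlap (chronic against healthy -1.15 ± 0.42 (SE), unadjusted p = 0.0228, adjusted p = 0.64 by the same test). In fibroblasts Gli1 was 18.3 ± 3.02 CPM in healthy and 8.02 ± 6.36 CPM in chronic libraries, and both acute values lay between the healthy and the chronic ones.

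In chronic against healthy fibroblasts, 5 of 9 members (Smo, Ptch1, Gli1, Gli2 and Gas1) were lower in both chronic than in both healthy libraries, where 18.8% of all genes were, and Shh was higher, where 22.5% were. In myofibroblasts it was 4 of 9 lower (Smo, Ptch1, Gli1 and Gas1), where 17.3% of all genes were, and Gli3 higher, where 19.4% were. In acute against healthy myofibroblasts, 5 of 9 were lower (Smo, Shh, Boc, Gli1 and Gli2), where 17.9% were, and in fibroblasts 3 (Smo, Gli1 and Gas1), where 15.4% were. These counts rest on 2 libraries against 2, and chronic myofibroblasts and the fibroblasts of chronic replicate 2 held the fewest UMIs of their classes: chronic myofibroblast Gli1 rests on 3 and 8 UMIs and chronic replicate 2 fibroblast Gli1 on 1 UMI. Urothelial marker RNA was also higher in chronic stroma, at 3231 and 2245 CPM in chronic myofibroblasts against 696 and 1885 CPM in healthy ones, and its part in these values was not tested.

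Gas1 and Hhip spread widely within some conditions. Gas1 in fibroblasts was 62.3 ± 5.51 CPM in healthy, 32.6 ± 10.5 in acute and 20.6 ± 19.2 in chronic libraries (chronic against healthy -1.34 ± 0.52 (SE), adjusted p = 0.682 by edgeR's quasi-likelihood test). Pi16 cells made up 265 of 833 and 424 of 1428 healthy fibroblasts, 115 of 370 and 48 of 1661 acute ones, and 298 of 1254 and 7 of 76 chronic ones. The part of this make-up in the Gas1 values was not tested. Hhip in myofibroblasts was 143 ± 113, 255 ± 119 and 68.9 ± 40.7 CPM, the acute libraries standing above the chronic ones by a log2 fold change of 1.88 ± 0.67 (SE, adjusted p = 0.387). Without the filter on low counts, Hhip was called in that comparison (2.03, adjusted p = 5.4e-04), as was Shh (-2.41, adjusted p = 0.00196). Over all genes, the 15 comparisons of conditions then called 0 to 238 genes each, against 0 to 3 in the main fit. Myofibroblast Shh rests on 1 and 111 UMIs in the acute and 2 and 27 UMIs in the chronic libraries. Contractile cells made up 561 of 1035 and 149 of 342 healthy myofibroblasts. In acute bladder it was 74 of 153 and 2092 of 2763, and in chronic bladder 33 of 72 and 38 of 102. The part of this make-up in the Hhip values was not tested.

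In the non-cycling cells of the urothelium, no difference in Shh between conditions passed the test. It was 239 ± 14.3 CPM in healthy, 214 ± 7.6 in acute and 265 ± 91.3 in chronic basal cells, and 199 ± 11.3, 190 ± 11.6 and 225 ± 61.8 CPM in intermediate cells (mean ± SD, n = 2 each). The wide chronic spread came from the difference between its 2 libraries, 200 and 329 CPM in basal cells. In superficial cells Shh was 94.0 ± 7.68, 76.4 ± 5.79 and 66.0 ± 20.5 CPM, and the healthy libraries lay above all injured ones (chronic against healthy -0.53 ± 0.27 (SE), unadjusted p = 0.0834, adjusted p = 0.789 by edgeR's quasi-likelihood test). That estimate was 0.12 when cells were clustered without integration. Without chronic replicate 2, the chronic difference was -0.20 in place of 0.17 in basal cells and -0.06 in place of 0.20 in intermediate cells. Cycling cells and all urothelial cells together were not tested between conditions. Shh in cycling intermediate cells, sub-cluster with superficial markers included, was 190 ± 12.7 CPM in healthy, 110 ± 4.82 in acute and 175 ± 18.1 in chronic libraries. In cycling basal cells it was 197 ± 33.4, 147 ± 6.62 and 197 ± 75.1 CPM. Over all urothelial cells it was 193 ± 13.7, 152 ± 5.53 and 193 ± 48.4 CPM.

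Smo was lower in both libraries of either injury than in both healthy libraries in basal and intermediate cells. In intermediate cells it had 17.5 and 16.0 CPM in healthy, 15.3 and 13.2 CPM in acute and 9.26 and 12.5 CPM in chronic libraries, with a chronic log2 fold change of -0.60 ± 0.22 (SE, unadjusted p = 0.0275, adjusted p = 0.96 by edgeR's quasi-likelihood test). In chronic against healthy bladder, 3 of 4 members tested in basal cells (Smo, Ptch1 and Gas1), 4 of 9 in intermediate cells (Smo, Gli3, Ptch1 and Boc) and 2 of 4 in superficial cells (Shh and Boc) were lower in both chronic libraries, where 17.1%, 18.7% and 16.0% of all genes were. In acute bladder it was 2 of 4 in basal cells (15.8% of all genes), 2 of 9 in intermediate cells (14.6%) and 3 of 4 in superficial cells (15.6%). No member tested was higher in both acute libraries in any of the 5 classes, where 11.4% to 15.6% of all genes tested were. Members with too few counts to be tested are not in these numbers.

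For shares of cells with a UMI, 2 libraries against 2 cannot give a p below 0.333 in the exact permutation test, and all 14 comparisons gave p of 0.333 or above, with adjusted values of 0.462 to 1. Of the 26 to 38 pathway-list genes tested per comparison, none was called between conditions by edgeR's quasi-likelihood test. Wnt2, a stromal Wnt, had a chronic log2 fold change of -1.08 in fibroblasts (unadjusted p = 0.063) and -0.95 in myofibroblasts (unadjusted p = 0.034, adjusted p = 0.658). In chronic fibroblasts Bmp5 had -1.13, Bmp4 -0.46, Wnt4 0.45 and Wnt5a 1.30 (unadjusted p = 0.201, 0.467, 0.347 and 0.0955), and in chronic myofibroblasts -0.12, -0.04, -0.35 and 0.57. Wnt5a is the gene of these that was lower in mesenchymal than urothelial cells, and the summed urothelial markers had 2385 and 4489 CPM in chronic fibroblasts against 617 and 1826 CPM in healthy ones. Their part in its value was not tested. None of the 14 stromal Hedgehog-responding genes tested was called in either class. In chronic against healthy bladder their median was -0.46 in fibroblasts and -0.18 in myofibroblasts, against -0.01 and 0.01 over all genes. In acute against healthy bladder it was 0.17 and -0.09, against -0.002 and -0.02 over all genes.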

How the data were processed

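The deposited tables hold raw UMI counts per gene and cell, which per the labels and methods the authors made with Cell Ranger from 10x Chromium Single Cell 3' libraries on mm10. The study's limits (more than 500 genes detected, mitochondrial share below 10%) left 55398 of 56629 barcodes. Doublets were taken by the highest Scrublet scores (scanpy 1.11.5) at 0.8% per 1000 cells (4469 cells) and left out, and clusters in which they made up over 33.3% of cells were removed (2388 cells, 1806 of them in a shallow cluster with myofibroblast genes). Libraries were integrated with SCTransform in Seurat 5.3.0 without the Hedgehog genes, clustered with leidenalg 0.10.2 at a resolution of 0.8 and named from markers. Some thresholds of this naming were set after the clusters were seen.

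For each library, the UMI counts of a class were added up where it held 20 cells or more. The main test was edgeR 4.0.16's quasi-likelihood test (TMM factors, filterByExpr, Benjamini-Hochberg adjustment over all genes), over 6 libraries for conditions and with the library as a block for classes, called at an adjusted p of 0.05. DESeq2 1.42.0, other filters, cell limits and clusterings, and leaving out each library were alternatives. Of these steps, the edgeR fit was tested on simulated counts with known changes. Shares came from cells thinned to 3000 UMIs of the 14338 genes used, leaving out shallower cells, and cover counting error only. The depths given with the shares count the same genes.

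The members and gene lists were chosen with earlier results of these data known. All 9 members were named. So were pathway genes with an adjusted p below 0.05, up to the 6 with the largest log2 fold change per comparison. Bmp and Wnt genes were named beyond that rule in some comparisons, between conditions only in chronic against healthy stroma. The 3 genes most like each of Shh, Gli1 and Ptch1 were also named. Other genes of the list are given as counts. Genes had to be listed in all 6 tables (14450, or 14338 without mitochondrial and ribosomal protein genes). The table of healthy replicate 1 ends in 1 incomplete line, which was left out, and its other rows are genes seen in at least 8 cells (in acute replicate 1, in at least 6). Per the methods, samples were processed and sequenced in batches, and the authors used the batch number in their integration. The labels give no batch, so whether batch and condition coincide is not known here. Batch was not modelled, and its part in differences between conditions was not tested. Sequences and promoter positions are RefSeq's (GRCm38.p6), and gene positions GENCODE M21's.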

Additional observations from a re-analysis of the deposited data

Results flagged for a closer look

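Ptch1 in chronic replicate 1 stood apart in the comparison of intermediate with basal cells. The difference in log2(CPM + 1) between the layers was 3.13 in that library and -0.29 to 0.17 in the other 5. The basal cells of chronic replicate 1 (124 cells) held 0 Ptch1 UMIs, where 3 UMIs would be 8.34 CPM, and its intermediate cells held 7.75 CPM, which is below that limit. Of 36 sets of 6 libraries looked at in this way this was the only one, and chance gives about 1 in 20.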

How the results depend on the processing

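The number of members called changed by under 1.5 times in 253 of 255 recomputations of the planned comparisons. Most of these were of the 15 comparisons of conditions, which started from 0 members called. The loss of a single call could also fall under that limit, as it did for Shh between intermediate and basal cells. The exceptions were the 5 stromal subtypes, where 19 calls became 7 when cells were clustered without integration, and acute against chronic myofibroblasts, where 0 became 2 without the filter on low counts. Over all genes, comparisons of classes called 103 to 9478 genes without integration, against 451 to 9260 in the main fit. Those of conditions called 0 to 238 without the filter, against 0 to 3. The 1 called difference that turned its sign was Gli2 in low-contractile myofibroblasts, at -0.076 in place of 0.48 without integration. Without thinning, the share of cells with a Shh UMI differed by 4.48 points between intermediate and basal cells (-5.23 thinned), by 1.13 points between acute and healthy basal cells (-4.46), by -2.27 points between chronic and healthy basal cells (3.70) and by -1.87 points between chronic and healthy intermediate cells (3.31), and the Ptch1 share by -0.986 points between acute and healthy fibroblasts (3.64).

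Leaving out 1 library at a time gave 3 to 4 members called in intermediate against basal cells, 3 in superficial against intermediate cells, 4 to 5 in myofibroblasts against fibroblasts (Gas1 was added without acute replicate 2), 9 in mesenchymal against urothelial cells and 16 to 18 over the stromal subtypes, and 0 in every comparison of conditions. Over all genes, the comparisons of conditions called 0 to 3 genes, 0 to 62 by DESeq2, 0 to 238 without the filter, 0 to 18 without integration, 0 to 73 without acute replicate 1, 0 to 7 without acute replicate 2 and 0 to 12 without healthy replicate 1. The cause of these changes was not tested. Counting the removed cluster as myofibroblasts, chosen after seeing the data, gave the same number of members called in myofibroblasts against fibroblasts (4), in mesenchymal against urothelial cells (9) and between conditions in myofibroblasts (0).

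Replicate numbers are shared by the conditions. Deviations of same-numbered libraries correlated by 0.13 to 0.39 between healthy and acute bladder in all 5 classes and by -0.30 to 0.11 between either and chronic bladder. The numbers were therefore not taken to pair the libraries, and the fits with the replicate block called 0 members and 0 to 3 genes. Chronic myofibroblasts (72 and 102 cells) and the fibroblasts of chronic replicate 2 (76 cells) rest on few cells, which limits the precision of their values.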

Other observations

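Outside the layers and the stroma, Shh was counted in every other class with enough cells. NK and T cells held 143, 99.8 and 43.0 CPM in the 3 libraries with at least 20 of them (34, 13 and 16 UMIs), endothelial cells 22.9 to 163 CPM in 5 libraries (3 to 18 UMIs) and mural cells 128 and 8.14 CPM in 2 libraries. The NK and T values of both healthy libraries and the higher mural value lay above the superficial cells of their own library. The lowest NK and T value and the lower mural value lay below them. The NK and T cells also had 3124 to 5771 CPM of the 7 urothelial markers summed, against 7666 to 10326 CPM in urothelial cells.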
